A study of Arabidopsis thaliana with 12 samples.

Results

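The comparison set seedlings that lack BRAT1, an anti-silencing factor, directly against seedlings that lack NRPE1, a silencing factor, over every gene. It contrasted the 3 brat1 and the 3 nrpe1 libraries, which are 6 of the 12 libraries of the series, paired by replicate number. The groups were the brat1 single mutant, the nrpe1 single mutant, the brat1nrpe1 double mutant and the wild type (WT), all 10-day-old Arabidopsis thaliana seedlings of the Columbia ecotype grown on MS medium under long days. The mutants carry the alleles brat1-1, a T-DNA insertion, and nrpe1-11. Each genotype was represented by 1 line, so that an effect of the mutated gene and another feature of the line cannot be told apart. The double mutant and the WT served to place each mutant. Their libraries also entered the estimate of the spread behind every call, which used all 12 libraries. Of 34133 genes listed, 22645 had a mean of at least 0.1 FPKM (read fragments scaled to transcript length and to the mapped reads of the library, the authors' unit) over the 12 libraries and were tested. Each library is poly-A RNA of whole seedlings, so that fewer cells of a type and less RNA per cell cannot be told apart.

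RNA-directed DNA methylation silences transposons, repeats and some genes in plants. NRPE1 is the largest subunit of RNA polymerase V, whose transcripts recruit the small-RNA-guided methylation machinery to its targets. ROS1 is a DNA demethylase that removes methylation and so keeps some loci active. BRAT1 is a protein with a bromodomain and an AAA-type ATPase domain that was identified as an anti-silencing factor. Loss of NRPE1 is known to release silenced loci, whereas loss of an anti-silencing factor can extend silencing to loci that are normally active. The comparison asks at which genes both mutants are at opposite levels and which levels they share.

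Within every genotype, replicates 2 and 3 were close to each other and replicate 1 stood apart. Over 17952 genes above 1 FPKM in all libraries, the SD of the log2 difference was 0.169 to 0.176 between replicates 2 and 3 and 0.668 to 0.726 between replicate 1 and either of them. The clock gene CCA1, which peaks in the morning, had 3.35, 77.5 and 78.8 FPKM in brat1 and 4.27, 80.1 and 75.6 FPKM in nrpe1, whereas PRR5, which peaks later in the day, had 71.4, 0.396 and 0.792 FPKM in brat1. Low values fell on steps of whole reads, and 1 read was worth 2.0 to 2.71 times as much FPKM in replicates 2 and 3 as in brat1 replicate 1, against 0.973 to 1.06 times in the other replicate 1 libraries, so that replicates 2 and 3 are the shallower libraries. Nothing states that the replicates come from separate cultures, and the p-values measure only the spread between these libraries, which may be technical. The leaf markers summed to 22900 to 31300 FPKM in brat1 and 24100 to 27100 FPKM in nrpe1, and none of the 4 leaf, 5 root, 2 shoot meristem and 1 seed storage markers tested was called between the mutants.

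The mutated genes followed the labels. BRAT1 (AT1G05910, chr1:1790216-1796715, plus strand, TAIR10.1) had 3.44, 2.96 and 3.15 FPKM in brat1 and 10.8, 9.70 and 9.70 FPKM in nrpe1. It had 3.11, 2.67 and 2.79 FPKM in brat1nrpe1 and 11, 11.4 and 11.1 FPKM in the WT. The brat1 libraries thus lay below all nrpe1 libraries (log2 difference −1.63, SE 0.07, adjusted p = 3.45e-06), and signal from the gene remained in brat1. NRPE1 (AT2G40030, chr2:16714460-16723718, plus strand) had 5.72, 4.94 and 4.24 FPKM in brat1 and 1.42, 1.32 and 1.29 FPKM in nrpe1, against 5.01, 4.14 and 4.16 FPKM in the WT. Its log2 difference between the mutants was 1.80 (SE 0.11, adjusted p = 2.06e-05), and NRPE1 in brat1 was 0.15 (log2) from the WT (adjusted p = 0.584).

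At most genes the mutants were at similar levels, and where they differed brat1 was more often the lower one. In limma on log2(FPKM + 0.1), the scale of every log2 difference given here, 45 genes were higher and 132 genes were lower in brat1 than in nrpe1. A gene was called at a Benjamini-Hochberg adjusted p under 0.05 with an absolute log2 difference above 1, which 0.199% (higher), 0.583% (lower) and in all 0.782% of the tested genes passed. The median difference over all tested genes was −0.0036, and 22015 of 22645 genes lay within 1 log2 unit. The libraries of both mutants did not overlap at 117 of the 132 genes lower in brat1 and at 35 of the 45 that were higher, beside 8.11% of all tested genes. Leaving out replicate 2 left 18 higher and 39 lower genes, and leaving out replicate 3 left 9 and 37. Without replicate 1 the counts were 66 and 133. Of the single libraries, leaving out brat1 replicate 2 left 29 higher and 83 lower genes, brat1 replicate 3 left 29 and 86, nrpe1 replicate 2 left 33 and 80, and nrpe1 replicate 3 left 30 and 81. Without the replicate block, 18 genes were higher and 72 lower. With the 6 brat1 and nrpe1 libraries fitted alone, 6 genes were higher and 19 lower. An unadjusted p under 0.01 with the same limit on size, the study's rule against the WT, was met by 70 higher (0.309%) and 185 lower genes (0.817%).

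**Figure D1:**
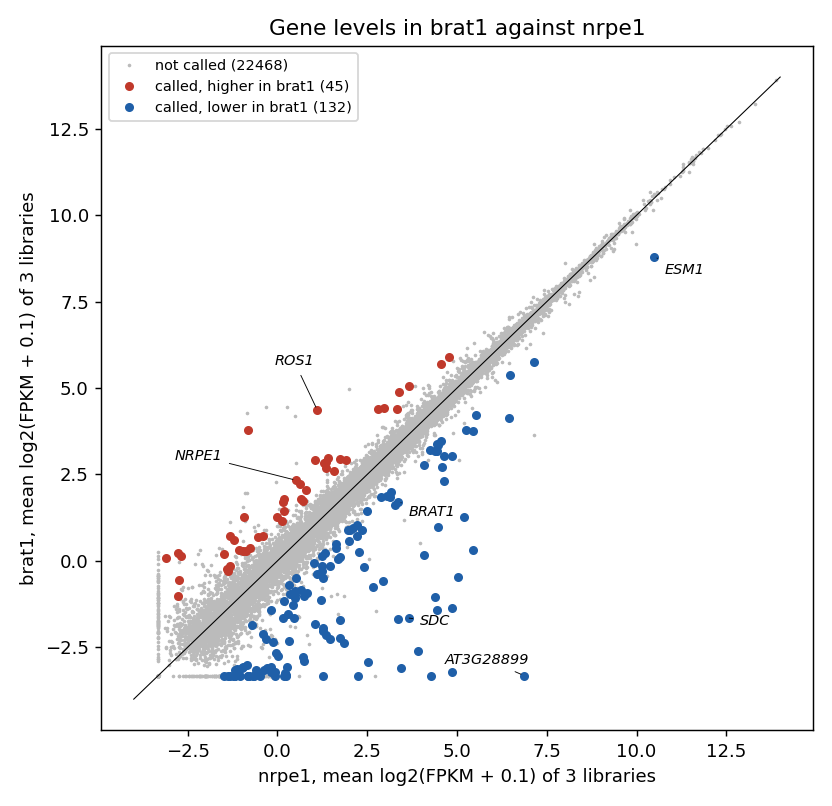
Mean log2(FPKM + 0.1) of the 3 brat1 libraries (vertical axis) against that of the 3 nrpe1 libraries (horizontal axis) for the 22645 tested genes, 1 point per gene. Red points are the 45 genes called higher in brat1, blue points the 132 called lower, and the blue points along the lower edge are at or near 0 FPKM in brat1.

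Set beside the WT, most genes that differed between the mutants were called in 1 mutant and not in the other. Of the 132 genes lower in brat1, 68 (51.5%) were called higher in nrpe1 than in the WT, 17 (12.9%) were called lower in brat1 than in the WT, 47 (35.6%) were called in neither comparison and 0 in both. Of the 45 genes higher in brat1, 21 (46.7%) were called lower in nrpe1 than in the WT, 6 (13.3%) were called higher in brat1 than in the WT, 18 (40.0%) in neither and 0 in both. Over all tested genes, limma called 58 genes (0.256%) in brat1 against the WT, 30 higher and 28 lower, and 117 genes (0.517%) in nrpe1 against the WT, 85 higher and 32 lower. Both comparisons use the same WT libraries. They also share the brat1 and nrpe1 values by which the genes differing between the mutants were chosen, so the shares among those genes are a description. The brat1 count was 1 without replicate 2, 2 without replicate 3, 25 without brat1 replicate 2, 26 without brat1 replicate 3, 32 without WT replicate 2 and 25 without WT replicate 3. The nrpe1 count was 47 without replicate 2 and 36 without replicate 3. Without the replicate block the counts were 10 for brat1 and 75 for nrpe1.

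The 132 genes lower in brat1 were mostly little expressed outside nrpe1. Their median level was 0.356 FPKM in brat1 and 2.45 FPKM in nrpe1, with 1.14 FPKM in brat1nrpe1 and 0.650 FPKM in the WT. The WT mean was under 1 FPKM at 80 of them (60.6%, beside 14.5% of all tested genes), and 20 were listed at 0 in all 3 brat1 libraries. The median log2 difference was −2.07 over the 132 fitted values and −1.83 over the 112 genes not listed at 0 in all 3 brat1 libraries. By annotation, 87 were protein-coding genes (65.9%, beside 95.7% of the tested genes matched to an annotated locus), 38 were pseudogenes (28.8%, beside 2.02%) and 7 were noncoding RNA genes (5.30%, beside 1.45%). These genes lay within 3 Mb of the gene-poorest megabase of their chromosome in 58 cases (43.9%, beside 9.41%). The 45 genes higher in brat1 held 4 pseudogenes (8.89%) and 9 genes within that distance (20.0%). The filter on low values used the mean of all 12 libraries. A gene near 0 in brat1 and the WT could thus enter the test through its nrpe1 or brat1nrpe1 level. The shares set beside all tested genes depend in part on that filter and are a description. Of the 132 lower genes, 16 have a stretch of at least 100 bases that is at least 98% identical elsewhere in the genome, which makes their uniquely mapped values uncertain.

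SDC (AT2G17690, chr2:7682162-7684083, plus strand), an F-box gene silenced through tandem repeats in its promoter, was among the 12 lower genes of largest difference. Its promoter repeats are shown because SDC is a textbook target of RNA-directed DNA methylation. Only exact copies of a repeated word are marked and counted, and diverged copies lie before the first of them. In the 300 bases before the annotated start (chr2:7681862-7682161, plus strand, RefSeq TAIR10.1), capitals mark AGTTATAAAGATAAGATTTCA, a 21-base word that occurs 4 times at a spacing of 32 bases, starting 203, 171, 139 and 107 bases before the gene.
SDC: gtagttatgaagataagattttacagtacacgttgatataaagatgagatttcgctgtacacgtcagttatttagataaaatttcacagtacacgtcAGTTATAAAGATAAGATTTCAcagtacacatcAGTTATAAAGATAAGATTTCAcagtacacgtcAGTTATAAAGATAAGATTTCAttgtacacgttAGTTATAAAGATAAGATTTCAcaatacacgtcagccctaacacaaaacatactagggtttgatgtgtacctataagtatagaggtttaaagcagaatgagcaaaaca

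A word of at least 15 bases repeated at least 4 times was found in 40 of 37879 windows of the same length upstream of annotated genes (0.106%) and in 9 of 22532 windows upstream of tested genes (0.0399%). SDC had 0.105, 0.136 and 0.561 FPKM in brat1 and 12.6, 12.9 and 12.4 FPKM in nrpe1, with 1.89, 2.33 and 2.23 FPKM in brat1nrpe1 and 0.181, 0.173 and 0.379 FPKM in the WT. The mutants did not overlap, brat1 and the WT did, and the double mutant lay between both. The log2 difference was −5.33 (SE 0.31, adjusted p = 2.02e-05) between the mutants and −0.07 between brat1 and the WT (adjusted p = 0.965). The study reported a reduced SDC transcript in brat1 mutants by quantitative RT–PCR. SDC was near the floor in the brat1 and WT libraries, where a reduction in brat1 is hard to resolve. AT2G17695, which overlaps SDC on the opposite strand, had means of 36.6 FPKM in brat1 and 37.1 FPKM in nrpe1 and was not called. The library kit does not mark strand, so that reads of overlapping genes cannot be told apart.

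AT3G28899 (chr3:10902184-10902515, plus strand), an uncharacterized gene, had the largest fitted difference of all. It was listed at 0 in all 3 brat1 libraries and at 468, 48.8 and 70.5 FPKM in nrpe1, with 100, 12.5 and 7.95 FPKM in brat1nrpe1 and 1.06, 0 and 0 FPKM in the WT (adjusted p = 3.46e-05). Every nrpe1 library was thus above every other library except the double-mutant replicate 1. The gene overlaps AT3G28900 on the opposite strand, which had means of 184 FPKM in brat1 and 176 FPKM in nrpe1 and a log2 difference of 0.06. An exact 0 can be a failed estimate, so no fold is given against a genotype listed at 0.

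The other genes with the largest differences included neighbours. AT1G33840 and AT1G33850 (chr1:12283725-12285371 and chr1:12287913-12288210, both minus strand) encode a LURP-one-like protein and a protein of the ribosomal S19 family. AT1G33840 had 0.103, 0 and 0.116 FPKM in brat1 and 20.5, 13.8 and 12 FPKM in nrpe1, against 0, 0 and 0.104 FPKM in the WT (adjusted p = 4.56e-06). AT1G33850 was listed at 0 in all 3 brat1 and all 3 WT libraries and at 13.2, 36.0 and 15.3 FPKM in nrpe1 (adjusted p = 2.14e-06). Both were thus at 0 or close to it in brat1 and in the WT. In brat1nrpe1 they had 11.3, 9.35 and 10.6 FPKM (AT1G33840) and 14.1, 10.8 and 13.2 FPKM (AT1G33850). AT1G59920 and AT1G59930 (chr1:22059424-22059842 and chr1:22060924-22061516, minus strand) are MADS-box genes, a class of transcription factor genes. AT1G59930 had 0.774, 0 and 0.588 FPKM in brat1 and 21.7, 36.4 and 30.8 FPKM in nrpe1, with 7.89, 6.89 and 5.08 FPKM in brat1nrpe1 and 0.372, 0.754 and 1.31 FPKM in the WT (adjusted p = 0.00142). AT1G59920 had 0.129, 0 and 0 FPKM in brat1 and 3.59, 6.90 and 7.06 FPKM in nrpe1, against 0.248, 0.377 and 0.262 FPKM in the WT (adjusted p = 7.11e-05). A stretch of 419 bases, as long as the annotated gene, is near-identical elsewhere, which makes its uniquely mapped values uncertain.

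Members without a named function were also among the lower genes of largest difference. AT5G27845 had 0.0996, 0.379 and 0.443 FPKM in brat1 and 20.5, 22.9 and 21.4 FPKM in nrpe1, with 8.72, 8.72 and 8.83 FPKM in brat1nrpe1 and 0.0294, 0.0626 and 0.0461 FPKM in the WT (log2 difference −5.86, SE 0.26, adjusted p = 3.44e-06). AT2G01422, annotated as a noncoding RNA, had 1.06, 0.277 and 0.763 FPKM in brat1 and 36.0, 31.0 and 30.3 FPKM in nrpe1, with 3.62, 5.58 and 4.57 FPKM in brat1nrpe1 and 0.147, 0.237 and 0.171 FPKM in the WT (log2 difference −5.49, SE 0.35, adjusted p = 3.88e-05). At both, every brat1 library lay above every WT library and far below every nrpe1 library, while brat1 was not called against the WT (adjusted p = 0.0524 and 0.14). AT3G32240 was at 0.0221, 0 and 0 FPKM in brat1 and 46.0, 23.2 and 22.9 FPKM in nrpe1, and its double-mutant libraries were near 0 as well, at 0.279, 0 and 0.0781 FPKM. AT5G41830, which encodes a protein of the RNI-like superfamily, had 0.0635, 0 and 0 FPKM in brat1 and 15.2, 9.38 and 8.91 FPKM in nrpe1, with 6.78, 4.98 and 5.31 FPKM in brat1nrpe1. AT5G35207 was listed at 0 in all brat1 and WT libraries and at 5.05, 3.71 and 5.36 FPKM in nrpe1. AT3G29639 had 0.703, 0.153 and 0.475 FPKM in brat1 and 20.4, 21.6 and 20.7 FPKM in nrpe1, against 0.270, 0.595 and 0.710 FPKM in the WT. All 12 lower genes of largest difference were called in every fit that left out a single brat1 or nrpe1 library.

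**Figure D2:**
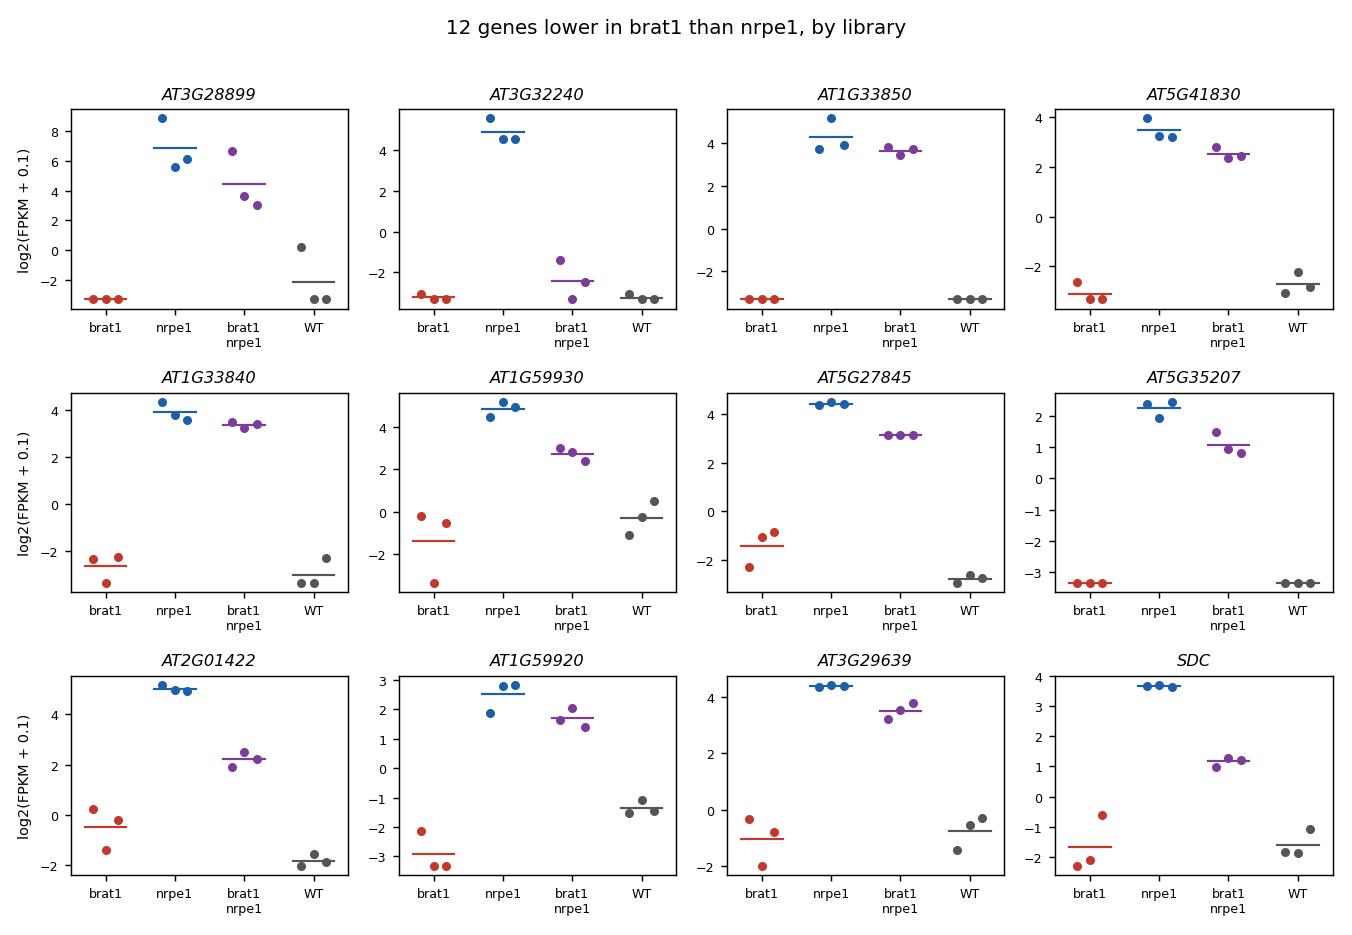
Level, as log2(FPKM + 0.1), in every library of the 12 genes called lower in brat1 than nrpe1 with the largest differences, 1 panel per gene. Dots are the 3 libraries of brat1, nrpe1, brat1nrpe1 and WT and the bar is their mean, and in each panel the 3 nrpe1 dots lie above the 3 brat1 dots.

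Called genes often lay side by side. Of the pairs of neighbouring tested genes, 20 had both genes called, and 19 of these had the same direction. Within 5000 bases there were 14 pairs lower in brat1, which held 27 genes, 1 pair higher in brat1 and 0 pairs of opposite direction, among 19581 neighbouring pairs. AT5G35205 and AT5G35207 lay 137 bases apart, with log2 differences of −3.54 and −5.57, and AT5G35480 and MRU1 lay 220 bases apart, with −2.32 and −1.87. The pseudogenes AT3G21010, AT3G21020 and AT3G21030 formed a run of neighbours on chromosome 3, with log2 differences of −1.70, −2.21 and −2.00. AT3G51070 and AT3G51075 overlap on opposite strands and are 1 observation. The pair higher in brat1 was AT4G12490 and AT4G12500, which encode lipid-transfer-like proteins.

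The 17 genes that were lower in brat1 than in both nrpe1 and the WT showed the other side of the comparison, a loss in brat1 with nrpe1 near the WT. BRAT1 itself was among them. PRB1 (AT2G14580), which encodes a basic pathogenesis-related protein, had 6.53, 7.63 and 10.7 FPKM in brat1 and 23.58, 26.8 and 24.9 FPKM in nrpe1, with 7.74, 7.37 and 7.68 FPKM in brat1nrpe1 and 17.1, 33.4 and 29.6 FPKM in the WT. Its log2 difference was −1.62 (SE 0.18, adjusted p = 0.00163), and brat1 and the double mutant were below every library of nrpe1 and of the WT. The other genes of the 17, named here after their values were seen, included MAP1B, which encodes a methionine aminopeptidase, with means of 2.98 ± 0.31 FPKM in brat1 and 9.60 ± 0.80 FPKM in nrpe1 (SD, n = 3 each). FDM2, a homologue of IDN2 that takes part in RNA-directed DNA methylation, had means of 1.42 ± 0.33 FPKM in brat1 and 3.90 ± 0.30 FPKM in nrpe1, against 4.17 ± 0.83 FPKM in the WT (SD, n = 3 each). AT5G05060 had means of 8.39 ± 2.82 FPKM in brat1 and 30.2 ± 9.59 FPKM in nrpe1, against 28.3 ± 6.01 FPKM in the WT (SD, n = 3 each), and 557 of its bases are near-identical elsewhere. The remaining 12 were AT5G56370, AT3G21020, AT5G44980, AT5G03377, AT5G34800, AT3G21010, AT3G57730, AT3G51075, AT5G64110, AT2G42390, AT1G13650 and SADHU10-1. AT2G42390 had means of 9.44 FPKM in brat1 and 21.8 FPKM in nrpe1, with 21.4 FPKM in brat1nrpe1, so that its double mutant was near nrpe1, unlike that of PRB1.

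ROS1 (AT2G36490, chr2:15307907-15314807, minus strand), the DNA demethylase gene, had the smallest adjusted p of the 45 genes higher in brat1. It had 23.3, 19.3 and 18.7 FPKM in brat1 and 2.56, 1.88 and 1.83 FPKM in nrpe1, with 4.76, 3.64 and 3.66 FPKM in brat1nrpe1 and 16.8, 15 and 15.3 FPKM in the WT. Every brat1 library was above every WT library, every nrpe1 library was far below, and the double mutant lay between nrpe1 and the WT. The log2 difference was 3.24 (SE 0.07, adjusted p = 5.21e-08) between the mutants, −2.87 between nrpe1 and the WT (adjusted p = 1.23e-07) and 0.37 between brat1 and the WT (adjusted p = 0.0542). ROS1 expression is known to depend on methylation of its own promoter. The study reported an induced ROS1 transcript in brat1 by quantitative RT–PCR, and more methylation of the ROS1 promoter in brat1 by bisulfite sequencing. Over the 45 genes, the median level was 3.44 FPKM in brat1 and 1.22 FPKM in nrpe1, with 1.90 FPKM in brat1nrpe1 and 2.61 FPKM in the WT, and the median log2 difference was 1.40.

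Among the genes higher in brat1 whose nrpe1 level was below the WT, CYP702A5 (AT4G15393), a cytochrome P450 gene, had 6.23, 7.77 and 8.38 FPKM in brat1 and 1.70, 2.43 and 1.89 FPKM in nrpe1, against 6.18, 11.2 and 9.53 FPKM in the WT (log2 difference 1.85, SE 0.12, adjusted p = 3.49e-05). AT2G18600, which encodes a protein of the ubiquitin-conjugating enzyme family, had 2.74, 1.78 and 2.54 FPKM in brat1 and 0.419, 0.466 and 0.381 FPKM in nrpe1, against 2.67, 2.28 and 3.39 FPKM in the WT (log2 difference 2.21, SE 0.21, adjusted p = 0.000668). AT4G08570, of a heavy metal transport superfamily, had 2.53, 4.11 and 3.68 FPKM in brat1 and 0.637, 1.68 and 1.03 FPKM in nrpe1, against 2.56, 3.44 and 5.13 FPKM in the WT (log2 difference 1.60, adjusted p = 0.00475). At these genes brat1 and the WT overlapped, while nrpe1 lay below both. NRPE1 itself belongs to the same class.

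Other genes were called higher in brat1 than in the WT as well as in nrpe1. WPP3 (AT5G27940), which encodes a WPP-domain protein, had 1.05, 0.717 and 1.36 FPKM in brat1 and 0.0589, 0 and 0.134 FPKM in nrpe1, with 1.28, 1.09 and 1.19 FPKM in brat1nrpe1 and 0.211, 0.308 and 0.222 FPKM in the WT. The 4 genotypes did not overlap except brat1 and the double mutant, so that the nrpe1 libraries were also below every WT library (log2 difference 2.84, SE 0.31, adjusted p = 0.0013). AT4G12490 had 26.9, 18.1 and 18.9 FPKM in brat1 and 9.20, 5.87 and 6.10 FPKM in nrpe1, with 16.3, 14 and 14.5 FPKM in brat1nrpe1 and 9.17, 7.93 and 7.48 FPKM in the WT (log2 difference 1.58, SE 0.09, adjusted p = 2.02e-05). It encodes a lipid-transfer-like protein and overlaps AT4G12495 on the opposite strand. AT1G04660, which encodes a glycine-rich protein, had 0.859, 1.65 and 2.49 FPKM in brat1 and 0.248, 0.275 and 0.393 FPKM in nrpe1, against 0.178, 0.447 and 0.466 FPKM in the WT (log2 difference 2.03, SE 0.23, adjusted p = 0.00161). These genes were called in brat1 against the WT, as was AT1G13470, which had 0.707, 2.08 and 1.89 FPKM in brat1 and 0.277, 0.447 and 0.285 FPKM in nrpe1 (log2 difference 1.82, adjusted p = 0.0165). The call of AT1G13470 between the mutants was lost without brat1 replicate 2 or 3 or nrpe1 replicate 2 or 3 (adjusted p = 0.0866, 0.101, 0.0846 and 0.0895).

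The remaining genes of largest difference were called against the WT in neither mutant. AOX1C (AT3G27620), which encodes an alternative oxidase of mitochondria, had 0.930, 0.955 and 1.28 FPKM in brat1 and 0.308, 0.210 and 0.268 FPKM in nrpe1, against 0.319, 0.365 and 0.711 FPKM in the WT (log2 difference 1.67, SE 0.24, adjusted p = 0.00684). AT5G44574 had 5.68, 3.84 and 4.32 FPKM in brat1 and 2.21, 0.921 and 1.51 FPKM in nrpe1 (log2 difference 1.58, adjusted p = 0.0081), and its call was lost without brat1 replicate 3 (adjusted p = 0.0581). It overlaps AT5G44572 on the same strand, which had means of 29.3 FPKM in brat1 and 18.4 FPKM in nrpe1. GEX2 (AT5G49150), a gene of gamete membranes, had 1.22, 0.837 and 1.24 FPKM in brat1 and 0.000113, 0.221 and 0.000159 FPKM in nrpe1 (adjusted p = 0.0205). The nrpe1 values nearest 0 may, like an exact 0, be failed estimates, and how reads were divided between GEX2 and its overlapping gene was not tested. GEX2 overlaps AT5G49152 on the same strand, whose level was 2.14 FPKM in brat1 and 2.65 FPKM in nrpe1, and the call of GEX2 was lost without brat1 replicate 1 or 3 or nrpe1 replicate 1 or 3 (adjusted p = 0.0968, 0.107, 0.0598 and 0.105). MAPR2 had the largest fitted difference of the 45 but was left out of the genes of largest difference because its libraries overlapped, at 45.0, 3.45 and 16.7 FPKM in brat1 and 16.3, 0.00542 and 0.00441 FPKM in nrpe1.

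**Figure D3:**
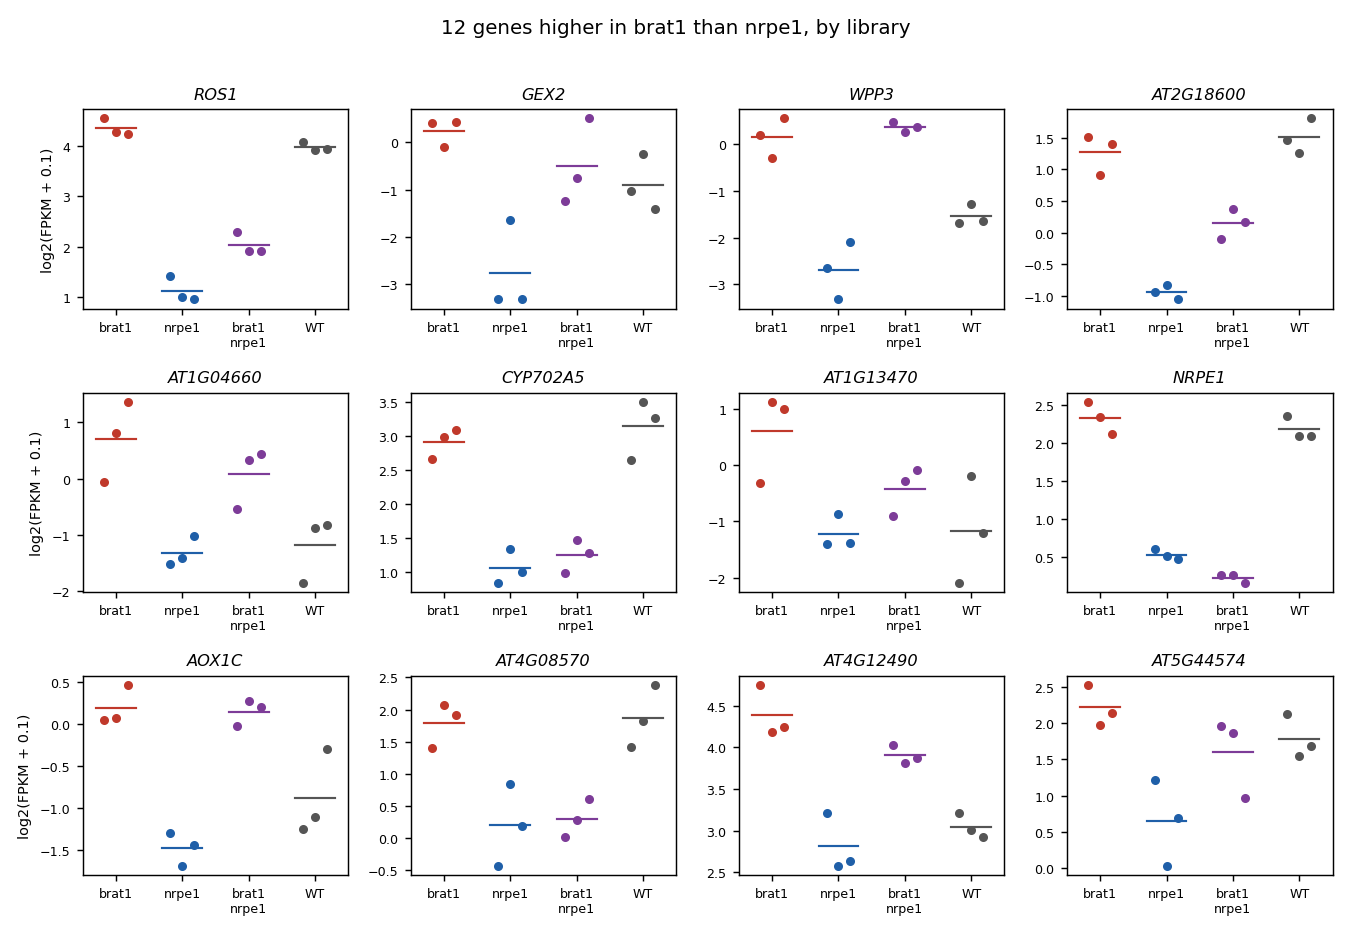
Level, as log2(FPKM + 0.1), in every library of the 12 genes called higher in brat1 than nrpe1 with the largest differences among those whose libraries did not overlap, 1 panel per gene. Dots are the 3 libraries of brat1, nrpe1, brat1nrpe1 and WT and the bar is their mean, and the WT lies near brat1 in the panels of ROS1, CYP702A5 and NRPE1 and near nrpe1 in those of AT1G04660 and AT4G12490.

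The levels that both mutants shared were few at the thresholds used. Against the WT, 8 genes were called the same way in both mutants, 5 higher and 3 lower, which is 13.8% of the 58 genes called in brat1 and 6.84% of the 117 called in nrpe1. Both lists rest on the same WT libraries. None of the 8 was called between the mutants. The count was 15 without replicate 1, 0 without replicate 2 and 0 without replicate 3, and it was 5 without brat1 replicate 3, nrpe1 replicate 2, nrpe1 replicate 3 or WT replicate 3. Without the replicate block it was 2.

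Of the 5 genes higher in both mutants, 3 are known from defence and stress. PR1 (AT2G14610), the standard marker of the salicylic acid response, had 4.80, 9.31 and 8.62 FPKM in brat1 and 32.9, 8.52 and 10.13 FPKM in nrpe1, with 7.38, 6.13 and 4.86 FPKM in brat1nrpe1 and 1.48, 1.13 and 1.55 FPKM in the WT. All mutant libraries were above all WT libraries, nrpe1 replicate 1 was the highest, and the difference between brat1 and nrpe1 was −0.95 with a 95% interval of −1.93 to 0.03. BGL2 (AT3G57260), a beta-1,3-glucanase gene, had 6.65, 9.72 and 10.6 FPKM in brat1 and 3.37, 6.34 and 8.69 FPKM in nrpe1, with 7.10, 8.33 and 7.75 FPKM in brat1nrpe1 and 1.59, 3.18 and 3.0 FPKM in the WT. Its difference between the mutants was 0.62 (95% interval 0.20 to 1.03, adjusted p = 0.117). PNP-A (AT2G18660), which encodes a natriuretic peptide, had 0.569, 2.84 and 2.35 FPKM in brat1 and 0.608, 1.88 and 2.56 FPKM in nrpe1, against 0.0840, 0.730 and 0.705 FPKM in the WT, with a difference of 0.13 between the mutants (95% interval −0.34 to 0.59). Replicate 1 of PNP-A was low in every genotype, and the mutants exceeded the WT of the same number in each replicate.

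The upstream windows of BGL2 and PNP-A are shown because WRKY transcription factors, which act in defence, bind the W-box. In the W-box TTGAC is followed by C or T, and only TTGAC was searched. Capitals mark TTGAC, which was searched on both strands in the 300 bases before the annotated start (RefSeq TAIR10.1, both minus strand): BGL2 at chr3:21189968-21190267 and PNP-A at chr2:8091737-8092036.
BGL2: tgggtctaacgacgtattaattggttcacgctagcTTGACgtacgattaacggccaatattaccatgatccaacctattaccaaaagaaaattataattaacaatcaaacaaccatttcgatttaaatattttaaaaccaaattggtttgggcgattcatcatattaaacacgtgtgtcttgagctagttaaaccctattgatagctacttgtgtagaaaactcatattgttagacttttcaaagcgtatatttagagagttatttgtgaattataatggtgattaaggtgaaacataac
PNP-A: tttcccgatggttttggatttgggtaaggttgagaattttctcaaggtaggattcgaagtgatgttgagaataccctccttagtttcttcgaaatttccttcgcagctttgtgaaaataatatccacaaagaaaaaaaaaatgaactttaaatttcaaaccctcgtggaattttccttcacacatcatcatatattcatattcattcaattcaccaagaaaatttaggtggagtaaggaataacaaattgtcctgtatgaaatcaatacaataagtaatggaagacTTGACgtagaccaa

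Each held 1 TTGAC, at 265 bases before the start of BGL2 and 14 bases before that of PNP-A. In both windows the next base was g, so neither marked match is a full W-box. TTGAC on either strand was present in 49.5% of the windows of all annotated genes and in 50.3% of those of the tested genes, so that its presence does not set either gene apart.

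The other shared genes were of mixed kinds. AT1G67105, a noncoding RNA gene, had 122, 46.1 and 45.6 FPKM in brat1 and 144, 55.4 and 55.3 FPKM in nrpe1, with 138, 86.9 and 88.5 FPKM in brat1nrpe1 and 21.2, 15.4 and 16.3 FPKM in the WT. Its log2 difference was 1.86 in brat1 and 2.12 in nrpe1 against the WT, and −0.26 between the mutants (95% interval −0.69 to 0.17). AT3G54730 had 0.352, 0.983 and 0.984 FPKM in brat1 and 0.769, 1.49 and 1.68 FPKM in nrpe1, against 0, 0.298 and 0.224 FPKM in the WT, and 1322 of its bases are near-identical elsewhere. QQS (AT3G30720), a gene that affects starch content and is known to vary between lines through DNA methylation, had 0.923, 0.573 and 0.741 FPKM in brat1 and 0.282, 0.473 and 0.322 FPKM in nrpe1, with 0.128, 0 and 0.158 FPKM in brat1nrpe1 and 7.78, 9.46 and 9.17 FPKM in the WT. Its brat1 libraries were above its nrpe1 libraries, by 0.88 (log2) with a 95% interval of 0.12 to 1.64, and did not pass the test (adjusted p = 0.21). SADHU3-2 (AT3G42658), a retroposon copy whose silencing also varies between lines, had 0.0728, 0.0788 and 0 FPKM in brat1 and 0.0779, 0.0866 and 0 FPKM in nrpe1, against 2.62, 2.12 and 2.49 FPKM in the WT (95% interval of the difference between the mutants −0.80 to 0.73). AT3G06437 had 0.10, 0.0432 and 0 FPKM in brat1 and 0.0429, 0.0950 and 0.0485 FPKM in nrpe1, against 0.924, 0.991 and 1.73 FPKM in the WT, and 776 of its bases are near-identical elsewhere.

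**Figure D4:**
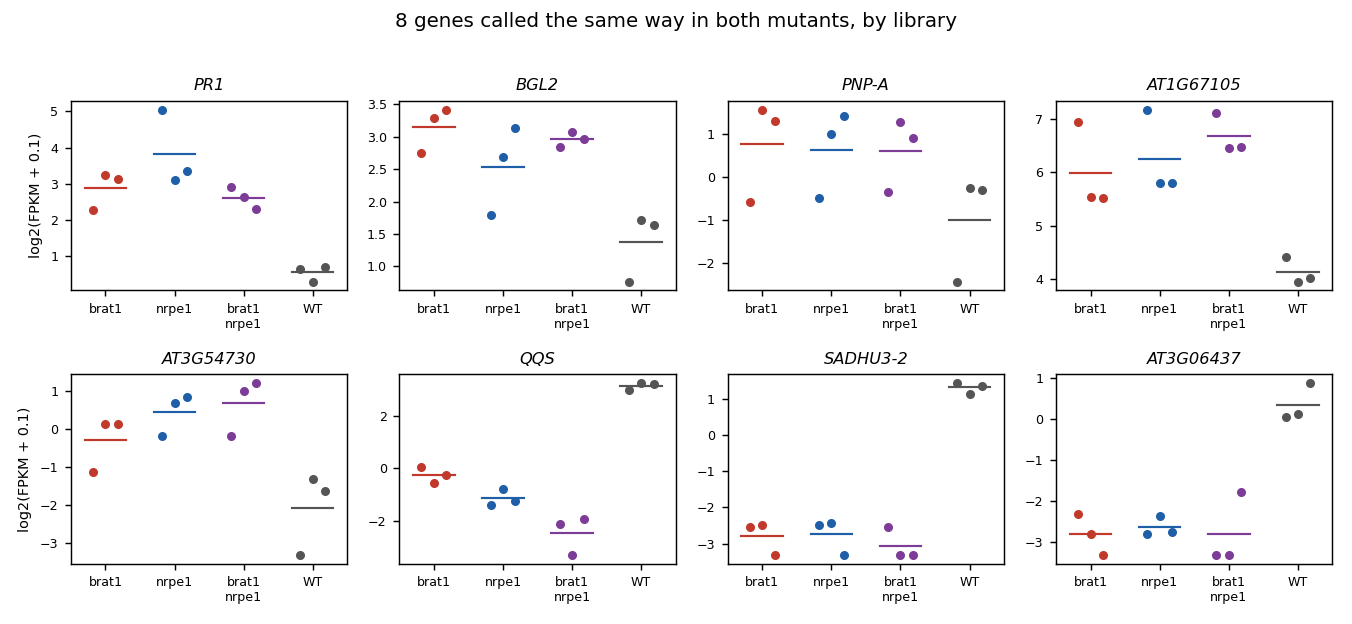
Level, as log2(FPKM + 0.1), in every library of the 8 genes called the same way in both mutants against the WT, 1 panel per gene. Dots are the 3 libraries of brat1, nrpe1, brat1nrpe1 and WT and the bar is their mean, and the mutants lie above the WT on average in the first 5 panels and below it in the panels of QQS, SADHU3-2 and AT3G06437.

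Opposite levels, with 1 mutant above and the other below the WT, were not called at any gene. In limma, 0 genes were called in both mutants against the WT with opposite signs. At an unadjusted p under 0.05 with a difference above 1 (log2) in both, 1 gene was higher in brat1 and lower in nrpe1 (WPP3) and 3 were lower in brat1 and higher in nrpe1 (AT1G59920, AT4G04223 and AT2G04135), beside 37 genes higher in both and 14 lower in both. The called count was 1 without replicate 1 (AT3G18845) and 1 without brat1 replicate 1 (AT1G59920). The values of AT1G59920 are uncertain, because a stretch as long as the gene is near-identical elsewhere. With an adjusted p under 0.05 in both and no limit on size, 1 gene was higher in brat1 and lower in nrpe1 and 2 genes were the reverse, beside 22 higher in both and 5 lower in both. These genes are named here after their values were seen.

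ESM1 (AT3G14210), which modifies the products of glucosinolate breakdown, had 472, 442 and 428 FPKM in brat1 and 1494, 1400 and 1386 FPKM in nrpe1, with 1505, 1366 and 1405 FPKM in brat1nrpe1 and 584, 617 and 584 FPKM in the WT. Every brat1 library was below and every nrpe1 library above every WT library, and the double mutant was at the level of nrpe1. The log2 difference was −1.67 (SE 0.04, adjusted p = 5.21e-08) between the mutants, −0.41 between brat1 and the WT (adjusted p = 0.00255) and 1.26 between nrpe1 and the WT (adjusted p = 4.99e-07), and 480 bases of ESM1 are near-identical elsewhere. AT5G38005, a noncoding RNA gene, had 0.960, 0.963 and 1.16 FPKM in brat1 and 14.9, 18.9 and 16.8 FPKM in nrpe1, with 6.51, 5.52 and 6.58 FPKM in brat1nrpe1 and 1.91, 2.09 and 1.79 FPKM in the WT. APR3 (AT4G21990), which encodes an enzyme of sulfate reduction, had 61.7, 111 and 109 FPKM in brat1 and 38.2, 78.7 and 75.4 FPKM in nrpe1, with 53.0, 92.3 and 94.5 FPKM in brat1nrpe1 and 48.8, 87.9 and 87.0 FPKM in the WT. Within each replicate number APR3 was above the WT in brat1 and below it in nrpe1, by a difference of 0.57 (log2) between the mutants (SE 0.04, adjusted p = 0.000163).

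**Figure D5:**
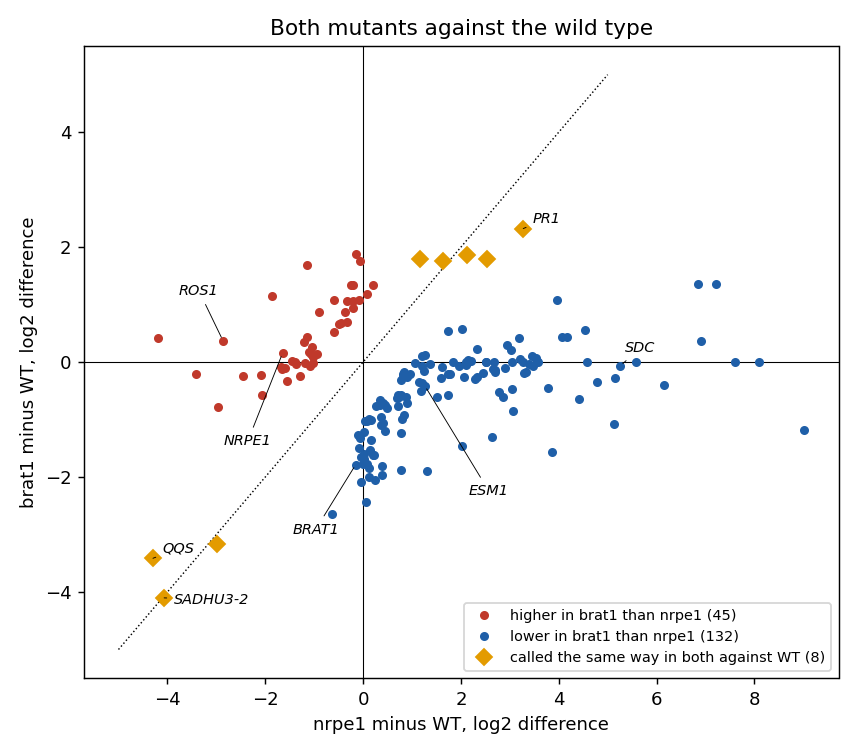
Log2 difference from the WT in brat1 (vertical axis) against that in nrpe1 (horizontal axis) for the 177 genes called between the mutants and the 8 called the same way in both, 1 point per gene. Both axes subtract the same WT libraries; genes lower in brat1 (blue) spread to the right along the nrpe1 axis and downward along the brat1 axis, and the 8 shared genes (diamonds) lie near the dotted line of equal differences.

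Of 26 tested genes of RNA-directed DNA methylation, 1 was higher in brat1 (NRPE1) and 0 were lower, with a median log2 difference of −0.02. That list does not hold FDM2, which was lower in brat1. Of 15 genes of maintenance silencing 0 were called (median 0.07), and of 21 genes of demethylation and anti-silencing 1 was higher (ROS1) and 1 lower (BRAT1). Beside these, 0.782% of all tested genes were called. Of 10 loci listed as silenced or responsive to RNA-directed DNA methylation, 2 were higher (ROS1 and HEI10) and 4 were lower (AT3G28899, SDC, AT5G24240 and AT3G33528). The study took up AT3G28899, AT5G24240 and AT3G33528 from these same samples as loci higher in nrpe1, so their direction is not independent evidence. AT5G24240, which encodes a phosphatidylinositol 4-kinase, had 0.185, 0.274 and 0.180 FPKM in brat1 and 12, 9.54 and 9.26 FPKM in nrpe1, with 4.87, 2.99 and 3.19 FPKM in brat1nrpe1 and 0.488, 0.284 and 0.394 FPKM in the WT (log2 difference −5.05, SE 0.20, adjusted p = 2.14e-06). AT3G33528 had 0.135, 0 and 0.201 FPKM in brat1 and 3.79, 3.53 and 3.27 FPKM in nrpe1, and its double-mutant libraries, at 0.0870, 0.0981 and 0.214 FPKM, were at the brat1 level. HEI10 (AT1G53490), a gene that sets the number of meiotic crossovers, had 5.83, 6.14 and 5.94 FPKM in brat1 and 3.31, 2.58 and 2.76 FPKM in nrpe1, with 1.25, 1.01 and 1.13 FPKM in brat1nrpe1 and 3.74, 3.49 and 3.70 FPKM in the WT. The order of HEI10 was thus unlike that of the loci above, with the double mutant below every other genotype. Its log2 difference was 1.03 (SE 0.10, adjusted p = 0.000862), and it was 0.95 without brat1 replicate 2 and 0.98 without nrpe1 replicate 2, under the limit of 1. On the opposite strand HEI10 overlaps MUM4, which had means of 31.1 FPKM in brat1 and 32.0 FPKM in nrpe1, and MRD1, with 0.598 and 0.52 FPKM. AT5G24240 overlaps AT5G24230 on the opposite strand, which had means of 0.72 FPKM in brat1 and 1.19 FPKM in nrpe1. None of these partners was called.

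Of 27 tested genes of salicylic acid and defence, 0 were higher and 1 (PRB1) was lower in brat1 than in nrpe1, with a median of 0.13, beside 0.782% of all tested genes called in either direction. Against the WT, 6 of the 27 were higher and 1 was lower in brat1, beside 0.256% of all tested genes called, and 3 were higher in nrpe1, beside 0.517%. WRKY70, a regulator of salicylic acid signalling, had 73.8, 33.9 and 34.8 FPKM in brat1 and 35.4, 22.3 and 22.9 FPKM in nrpe1, a log2 difference of 0.75 (adjusted p = 0.0198) that is under the limit on size. None of 15 jasmonate, 19 endoplasmic reticulum stress, 12 circadian clock and 11 heat shock genes was called (medians 0.11, −0.0079, −0.0046 and −0.0059).

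Triterpene cluster genes, which make root metabolites, lay on 1 side. All 7 had a negative difference, with a median of −0.95 and a range of −2.02 to −0.67. The brat1 and nrpe1 libraries overlapped at each of the 7 genes. Of the 7, 1 passed the test, beside 0.583% of all tested genes called lower in brat1. This was MRN1 (AT5G42600), the marneral synthase gene, which had 4.49, 0.474 and 0.560 FPKM in brat1 and 7.80, 4.33 and 3.19 FPKM in nrpe1, with 5.45, 1.0 and 0.888 FPKM in brat1nrpe1 and 4.64, 0.572 and 0.525 FPKM in the WT (log2 difference −2.02, SE 0.35, adjusted p = 0.0175). The call of MRN1 was lost without brat1 replicate 2 or 3 or nrpe1 replicate 2 or 3 (adjusted p = 0.0937, 0.0879, 0.0756 and 0.0993). CYP71A16, of the same cluster, had 5.20, 1.10 and 1.17 FPKM in brat1 and 6.95, 2.77 and 2.79 FPKM in nrpe1, a difference of −0.95 (adjusted p = 0.0249). The 5 root markers, none of which was called, had a median difference of −0.15 and summed to 48.4 to 50.7 FPKM in brat1 and 53.5 to 55.9 FPKM in nrpe1; the part of root tissue in the triterpene result was not tested.

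Of 8 genes of glucosinolate hydrolysis, 0 were higher and 2 were lower in brat1 (ESM1 and MBP1), beside 0.583% of all tested genes called lower, with a median of −0.16. MBP1, a myrosinase-binding protein gene, had 19.4, 6.17 and 6.08 FPKM in brat1 and 39.7, 15.3 and 15.2 FPKM in nrpe1, against 49.0, 8.64 and 8.31 FPKM in the WT (log2 difference −1.21, adjusted p = 0.04). Its call was lost when any 1 of the 6 brat1 and nrpe1 libraries was left out (adjusted p = 0.0692 to 0.161). Of 10 genes of the FLC family and floral integrators, FLC (AT5G10140), the repressor of flowering, was lower in brat1, beside the same 0.583%. FLC had 1.43, 0.752 and 0.467 FPKM in brat1 and 5.42, 1.41 and 1.52 FPKM in nrpe1, with 1.65, 0.806 and 0.910 FPKM in brat1nrpe1 and 1.5, 0.578 and 0.840 FPKM in the WT (log2 difference −1.40, SE 0.25, adjusted p = 0.0189). FLC overlaps AT5G01675 on the opposite strand. The call of FLC was lost without brat1 replicate 1, brat1 replicate 3 or nrpe1 replicate 3 (adjusted p = 0.0808, 0.1 and 0.061). Against the WT, FLC, AGL42 and MAF5 were called higher in nrpe1. MAF5 had 2.85, 1.0 and 1.52 FPKM in brat1 and 3.33, 1.10 and 1.27 FPKM in nrpe1, against 0.950, 0.341 and 0.311 FPKM in the WT, and its log2 difference between the mutants was −0.03 (SE 0.31).

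PI, a marker of the flower, an organ that 10-day-old seedlings do not yet bear, was higher in brat1. The 3 flower markers AP3, PI and AG summed to 1.71 to 2.80 FPKM in brat1 and 0.740 to 0.845 FPKM in nrpe1, with 1.66 to 2.43 FPKM in brat1nrpe1 and 0.706 to 0.909 FPKM in the WT, and none was at 0 in all libraries of a genotype. PI, a floral homeotic gene, had 1.04, 1.59 and 0.820 FPKM in brat1 and 0.453, 0.469 and 0.411 FPKM in nrpe1, against 0.461, 0.467 and 0.681 FPKM in the WT (log2 difference 1.16, SE 0.26, adjusted p = 0.0464). AP3, its partner, had 0.514, 0.848 and 0.810 FPKM in brat1 and 0.129, 0.215 and 0.146 FPKM in nrpe1 (log2 difference 1.63, adjusted p = 0.0709), and AG had 0.152, 0.368 and 0.211 FPKM in brat1 and 0.263, 0.135 and 0.183 FPKM in nrpe1. PI was thus the called member of the 3 between the mutants, beside 0.199% of all tested genes called higher in brat1. Its call was lost in each fit without a single brat1 or nrpe1 library other than brat1 replicate 3 (adjusted p = 0.0732 to 0.186). Against the WT, 1 of the 3 flower markers was called higher in brat1, beside 0.132% of all tested genes. This marker was not PI, whose difference from the WT was under the limit of 1.

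The study's own lists were chosen on these samples and are not independent evidence of direction. Over all tested genes, 0.583% were called lower and 0.199% higher in brat1 than in nrpe1. Of 39 tested genes that the study lists as reduced in brat1, 22 were lower and 0 higher in brat1 than in nrpe1, with a median of −1.27. Of 42 listed as increased in brat1, 6 were higher and 1 lower (median 0.57). Of 94 listed as increased in nrpe1, 61 were lower and 0 higher in brat1 (median −2.14, and −2.02 over the 82 genes not at 0 in all libraries of a mutant). Of 84 listed as lower in brat1nrpe1 than in nrpe1, 50 were lower and 1 higher in brat1 (median −1.64, and −1.52 over 78 such genes).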

How the data were processed

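Poly-A RNA of 10-day-old seedlings was sequenced in 12 libraries, 3 each of brat1, nrpe1, brat1nrpe1 and the wild type, with genotype and replicate number taken from the sample labels. The authors aligned reads against TAIR10 using TopHat (TopHat2 2.0.12 and Bowtie in the submitters' processing notes), kept uniquely mapped reads and deposited the FPKM of each gene in each library, computed with Cufflinks 2.0.1. The deposited FPKM values hold no counts. Depth is described relatively, from the steps of low values (genes under 0.6 FPKM in every library), and no counting intervals are given. The study lists the mapped reads of each library, which were not used here and are also fewer in replicates 2 and 3 of every genotype. Cufflinks divides reads among overlapping models, and an exact 0 can be a failed estimate. The authors' Cuffdiff comparisons were not used.

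Of 34133 genes listed, 7776 were at 0 in all libraries, and 22645 with a mean of at least 0.1 FPKM were tested. limma 3.58.1 (R 4.3.3) fitted log2(FPKM + 0.1) with 4 genotype means and the replicate number as a block over all 12 libraries, with an expression-dependent trend, and the contrasts brat1 minus nrpe1, brat1 minus WT and nrpe1 minus WT were taken. Calls required a Benjamini-Hochberg adjusted p under 0.05 over all tested genes (two-sided) and an absolute log2 difference above 1. The replicate numbers come from the labels, and the libraries were treated as paired by number. The deviations of same-numbered brat1 and nrpe1 libraries from their genotype means correlated across genes at 0.812, 0.594 and 0.609. Replicate 2 of either mutant with replicate 3 of the other gave 0.579 and 0.609, and replicate 1 with replicates 2 and 3 gave −0.706 to −0.679. These values set replicate 1 apart and do not show that replicates 2 and 3 pair by number. Loci, biotypes and upstream windows come from RefSeq TAIR10.1, to which 22549 tested genes matched by locus identifier, and near-identical stretches (at least 98% over at least 100 bases) were found with BLAST 2.17.0.

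Named genes were BRAT1 and NRPE1, in each direction the 12 called genes of largest difference whose brat1 and nrpe1 libraries did not overlap and whose mean was at least 1 FPKM in the higher mutant, the genes called the same way in both mutants against the WT, genes called opposite ways, and called members of the gene lists. The members and lists were chosen with earlier results of these data known. Alternatives were the fit without the block, the 6 libraries alone, pseudocounts of 0.01 and 1, other filters, no trend, scaling to the 75th percentile, the study's limits (unadjusted p under 0.01), leaving out each replicate number, averaging replicates 2 and 3 and, added after the data were seen, leaving out single libraries. The upstream window of 1 gene is not reported here.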

Additional observations from a re-analysis of the deposited data

How the results depend on the processing

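The main counts were 45 genes higher and 132 lower in brat1 than in nrpe1, 58 called in brat1 and 117 in nrpe1 against the WT, 8 called the same way and 0 opposite ways. Without the replicate block the first 5 counts were 18, 72, 10, 75 and 2, and with the 6 libraries alone the first 2 were 6 and 19. A pseudocount of 1 gave 21, 65, 22, 66 and 4. Testing only genes with a mean of at least 1 FPKM, which removes genes, gave 72 lower genes, 38 and 73 against the WT and 5 called the same way. The study's limits, an unadjusted p under 0.01, gave 70 higher and 185 lower genes, 139 and 204 against the WT, 24 the same way and 4 opposite ways. With replicates 2 and 3 averaged the counts were 15, 43, 1, 51 and 0. Leaving out a replicate number or a single library gave 9 to 67 higher and 37 to 139 lower genes, 1 to 53 genes in brat1 and 36 to 173 in nrpe1 against the WT, 0 to 15 called the same way and 0 to 1 opposite ways. The cause of these changes was not tested beyond what each setting removes. No direction of the 34 called named genes was reversed in any setting run, while the small uncalled differences of PNP-A, SADHU3-2 and AT3G06437 changed sign in some settings that left out libraries. Of the 34, 12 kept their call in every setting run, namely AT3G32240, AT1G33850, AT5G41830, AT1G33840, AT5G27845, AT5G35207, AT2G01422, ROS1, AT4G12490, BRAT1, ESM1 and AT5G24240. Of the tested genes, 1215 were listed at 0 in at least 1 brat1 or nrpe1 library.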

Other observations

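The double mutant mostly lay between the single mutants at the 132 lower and 45 higher genes. Its libraries were not in the contrast of brat1 and nrpe1, but they entered the filter on low values and the estimate of the spread behind the calls. Its mean was between those of brat1 and nrpe1 at 115 of the 132 genes (87.1%) and at 31 of the 45 (68.9%), beside 36.0% of all tested genes. Genes with a wide gap between the mutants leave more room for a value between them, so this is a description. At the 132 lower genes the median log2 difference of brat1nrpe1 was 1.0 from brat1 and −1.04 from nrpe1, and at 17 genes the double mutant was outside the range of both (8 above, 9 below).

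Some called genes outside the lists have known roles and are given here after their values were seen. KELP (AT4G10920), a transcriptional coactivator gene, had 27.9, 75 and 73.5 FPKM in brat1 and 51.9, 234 and 233 FPKM in nrpe1, with 47.2, 128 and 129 FPKM in brat1nrpe1 and 29.6, 77.3 and 72.0 FPKM in the WT (log2 difference −1.40, limma adjusted p = 0.00119). PUM9, which encodes a Pumilio RNA-binding protein, had 0.0506, 0.109 and 0.263 FPKM in brat1 and 1.77, 3.08 and 2.73 FPKM in nrpe1 (−3.51, adjusted p = 8.36e-05). The bHLH38 and BHLH100 genes, transcription factors induced by iron deficiency, were both lower in brat1. bHLH38 had 20.9, 6.92 and 5.33 FPKM in brat1 and 35.5, 13.7 and 13.6 FPKM in nrpe1, against 21.6, 8.27 and 6.79 FPKM in the WT (−1.03, adjusted p = 0.00113). BHLH100 had 37.0, 5.53 and 5.31 FPKM in brat1 and 42.8, 14.3 and 16.4 FPKM in nrpe1, against 34.2, 5.74 and 5.65 FPKM in the WT (−1.06, adjusted p = 0.0381).

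Among the higher genes, AT5G11330, which encodes an FAD-dependent oxidoreductase, had 28.2, 36.0 and 36.2 FPKM in brat1 and 10.7, 13.9 and 13.7 FPKM in nrpe1, against 29.0, 35.9 and 35.6 FPKM in the WT. PAP1, an activator of anthocyanin synthesis, had 3.51, 1.69 and 3.09 FPKM in brat1 and 2.31, 0.758 and 0.602 FPKM in nrpe1, against 3.16, 1.86 and 2.14 FPKM in the WT (log2 difference 1.27, adjusted p = 0.0347). PHE1, an imprinted MADS-box gene of the endosperm, had 1.86, 0.342 and 0.531 FPKM in brat1 and 0.888, 0.0941 and 0.192 FPKM in nrpe1, against 0.760, 0.110 and 0.159 FPKM in the WT (1.10, adjusted p = 0.0396).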
